A study of Rattus norvegicus with 15 samples.

Results

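Respiratory complex I is the entry point for electrons from NADH into the mitochondrial respiratory chain. It consists of a matrix arm, which holds the flavin and the iron-sulfur clusters, and a membrane arm, which pumps protons. It is built from modules: the N module oxidizes NADH, the Q module passes the electrons on to ubiquinone, and the ND1, ND2, ND4 and ND5 modules form the membrane arm, each around subunits encoded in the mitochondrial DNA. The nuclear subunit genes carry symbols that begin with Nduf, and genes for factors that help to put the complex together carry symbols that begin with Ndufaf. The tubules of the kidney, above all the proximal tubule and the thick ascending limb, are rich in mitochondria because solute transport in them consumes much ATP.

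The genes described here are the 42 genes with a symbol that begins with Nduf and with a probe set of their own on the Affymetrix rat genome array used, among 14217 genes with such a probe set. Where a gene had several, the probe set with the highest mean log2 signal over the 15 arrays was used. 34 of the genes code for subunits of complex I and 6 for assembly factors (Ndufaf1, Ndufaf3, Ndufaf4, Ndufaf5, Ndufaf7 and Ndufaf8). Ndufa4, now known as a subunit of complex IV, and its relative Ndufa4l2 were kept apart from both classes. 6 nuclear core subunits, of the kind that carry the redox centres, were among the 34, and the mitochondrially encoded subunits were not analysed here.

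The allogeneic group (aTX, n = 5) consisted of kidneys of Lewis Brown Norway (LBN) rats transplanted into Lewis (LEW) rats without immunosuppression, a model of acute rejection. The syngeneic group (sTX, n = 5) consisted of LBN kidneys transplanted into LBN rats and the control group (ctr, n = 5) of native LBN kidneys, which by the series description were the other kidneys of the donors. All rats were males of 10 to 12 weeks, both kidneys of each recipient were removed at surgery, and grafts were taken on the fourth day. The source names of the samples state other strains (Lewis donors throughout, grafted into Lewis rats for sTX and into LBN rats for aTX) and 1 label field calls sTX 4 and sTX 5 allogeneic, so the titles and the series description were followed and results were repeated without both arrays.

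Signals are MAS5 intensities on a linear scale, 1 array per kidney. They were scaled by the authors to a trimmed mean of about 100 on every array. A gene is said to be lower or higher where the adjusted p of limma over all 31042 probe sets tested was below 0.05, and fold changes are ratios of geometric means. The mean signals of the subunit genes lay between 147 (Ndufs4) and 2533 (Ndufb9), and 33 of the 34 had a mean of at least 200. The assembly factors were dimmer, with means from 62.8 (Ndufaf1) to 303 (Ndufaf4). Signals of different probe sets do not compare the abundance of different genes.

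By the time given as the hybridize date in the fluidics entries of their instrument records, the arrays fell into 2 runs, here called wash runs. aTX 2, 3 and 4 shared a run with all control arrays, and aTX 1 and 5 shared the other with all syngeneic arrays, so that sTX and ctr share no run. RNA integrity was read from control probe sets at both ends of a transcript: for Gapdh the ratio of 3' to 5' signal was 1.04 ± 0.025 in aTX, 1.10 ± 0.024 in sTX and 1.17 ± 0.047 in ctr. For Actb it was 1.23 ± 0.058 in aTX, 1.51 ± 0.060 in sTX and 1.74 ± 0.168 in ctr (SD, n = 5 each; two-sided exact permutation tests of the pairs of groups, adjusted p from 0.0143 to 0.0179 over 9 tests). 9 of 10 proximal tubule markers were lower in aTX than in ctr, with a summed signal of 12483 to 16157 in aTX, 21893 to 26046 in sTX and 24621 to 32567 in ctr. 5 of 5 markers of the thick limb and distal tubule and 5 of 5 of the collecting duct were lower as well. So were 3 of 3 podocyte and 3 of 3 endothelial markers. In the same comparison 27.7% of all genes were called lower and 27.7% higher. All 4 pan-leukocyte markers were higher, with sums of 3840 to 5006 in aTX, 549 to 841 in sTX and 332 to 419 in ctr, as were 6 of 6 T cell and 6 of 6 macrophage markers. No marker in these lists was at 0 on average in any group. These markers and RNA measures moved with the groups, and their part in the results below was not tested. In whole kidneys, fewer cells of a type cannot be told apart from less RNA per cell.

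The promoters of 4 genes are shown here because they carry the extremes of the results: Ndufv3 and Ndufa6, which fell the most in aTX, Ndufa5, the subunit gene called higher in aTX against ctr, and Ndufa13, which was higher in aTX than in sTX. Each runs from 250 bases before to 50 bases after the RefSeq start of the gene, 5' to 3' on the strand of the gene, from the RefSeq annotation of GRCr8. Capitals mark matches on either strand to GCGCANGCG (the motif of NRF-1, a regulator of respiratory chain genes), CCGGAAG (the motif of ETS factors such as GABP) or AAGATGGC (the motif of YY1).
Ndufv3, chr20:9613536-9613835, plus strand: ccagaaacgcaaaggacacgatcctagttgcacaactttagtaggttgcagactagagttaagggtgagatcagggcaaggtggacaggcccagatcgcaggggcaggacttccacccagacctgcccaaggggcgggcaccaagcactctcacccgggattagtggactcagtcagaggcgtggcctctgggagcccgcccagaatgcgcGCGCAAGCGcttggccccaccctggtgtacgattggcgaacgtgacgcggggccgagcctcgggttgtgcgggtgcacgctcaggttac
Ndufa6, chr7:115750268-115750567, minus strand: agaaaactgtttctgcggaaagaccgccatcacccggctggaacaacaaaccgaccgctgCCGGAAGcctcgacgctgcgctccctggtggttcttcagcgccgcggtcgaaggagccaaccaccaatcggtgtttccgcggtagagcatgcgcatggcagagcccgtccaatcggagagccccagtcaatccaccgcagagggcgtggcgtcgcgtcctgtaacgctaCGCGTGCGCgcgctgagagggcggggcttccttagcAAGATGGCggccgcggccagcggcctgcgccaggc
Ndufa5, chr4:53971186-53971485, minus strand: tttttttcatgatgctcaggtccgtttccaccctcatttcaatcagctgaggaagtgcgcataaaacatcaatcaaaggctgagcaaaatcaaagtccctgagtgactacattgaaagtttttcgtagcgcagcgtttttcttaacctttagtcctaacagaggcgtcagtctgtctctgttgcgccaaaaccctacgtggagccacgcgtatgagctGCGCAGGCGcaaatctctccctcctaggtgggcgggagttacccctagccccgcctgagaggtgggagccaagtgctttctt
Ndufa13, chr16:19560276-19560575, plus strand: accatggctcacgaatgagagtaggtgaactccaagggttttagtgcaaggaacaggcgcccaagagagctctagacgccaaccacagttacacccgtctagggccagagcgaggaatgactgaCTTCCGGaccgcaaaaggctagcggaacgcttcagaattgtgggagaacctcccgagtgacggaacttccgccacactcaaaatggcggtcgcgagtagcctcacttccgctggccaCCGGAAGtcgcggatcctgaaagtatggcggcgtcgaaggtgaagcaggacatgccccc

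The Ndufv3 promoter held 1 NRF-1 match and the Ndufa6 promoter 1 match to each motif, the one to YY1 lying just behind the start. The Ndufa5 promoter, of a gene that did not fall, also held 1 NRF-1 match, and the Ndufa13 promoter held 2 ETS matches. Of the 32 subunit genes with a promoter in the table (Ndufa8 and Ndufb9 are missing), 8 (25%) held the NRF-1 motif, 7 (21.9%) the ETS motif and 8 (25%) the YY1 motif. Over all 27457 promoters of the same length the shares were 6.21%, 9.21% and 3.41%, and over the 19005 of protein coding genes they were 7.98%, 11.2% and 3.88%. 19 subunit genes (59.4%) held at least 1 of the 3 motifs, against 16.6% of all promoters and 20.1% of those of protein coding genes. Among the 6 assembly factors 4 (66.7%) did. These shares include the YY1 motif, which was added after the NRF-1 and ETS motifs. In the subunit genes its matches began at bases 5 to 27 behind the start. How this position bears on the shares was not tested. The medians of genes with and without a motif lay close together in aTX against ctr: the median log2 change was -0.57 for subunit genes with and -0.51 for those without the NRF-1 motif, -0.58 with and -0.52 without the ETS motif, and -0.53 with and -0.52 without the YY1 motif. A match describes these letters in these windows and is no evidence of binding.

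The first comparison asked how complex I genes differ between rejected grafts and native kidneys. 30 of the 34 subunit genes were lower in aTX than in ctr, 1 was higher (Ndufa5) and 3 were not called (Ndufs4, Ndufa8 and Ndufa13). Over all genes 27.7% were called lower and 27.7% higher, and of the 3784 genes with a mean signal of at least 200, to which 33 of the subunit genes belong, 44.3% were called lower. The median log2 change of the subunit genes was -0.51 (1.43-fold lower), against -0.03 for all genes and -0.10 for the brighter genes. The interquartile range of the subunit genes was -0.59 to -0.39, against -0.54 to 0.50 for all genes, so that the lower quartile of all genes lay near the subunit median. In 30 subunit genes every aTX array lay below every control array, which was the case for 22.3% of all genes.

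**Figure D1:**
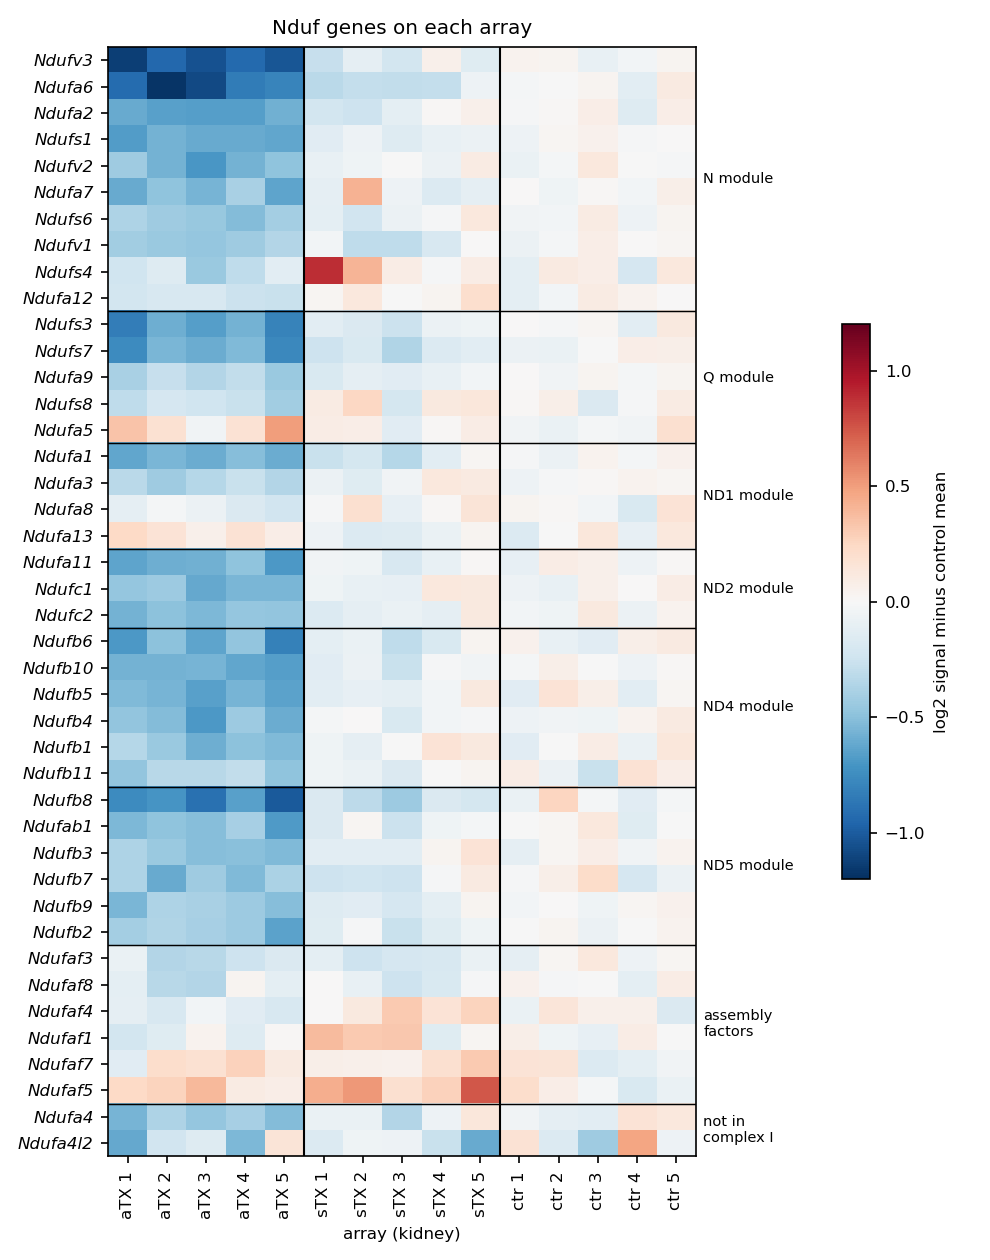
Log2 signal of each Nduf gene (rows, grouped by module and sorted within it by the change in aTX against ctr) on each array (columns), minus the mean of the 5 control arrays; blue is lower and red is higher. The aTX columns are blue in most subunit rows but not for Ndufa5 and Ndufa13, whereas sTX 1 stands out for Ndufs4 and sTX 2 for Ndufa7.

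The fall was alike in the 5 rejected grafts. The median over the subunit genes, relative to the control mean, was -0.47, -0.48, -0.54, -0.48 and -0.54 on arrays aTX 1 to 5. On each of these arrays 30 or 31 of the 34 subunit genes lay below every control. This count per array was not made over all genes. Within the wash run that holds both groups, aTX 2, 3 and 4 against the controls, 31 subunit genes were lower and the median was -0.50. In that fit 6029 of the 31042 probe sets tested were lower, and the median of all genes was -0.04.

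All 6 core subunit genes were lower in aTX than in ctr, with a median of -0.58. Ndufs1, the largest core subunit and the carrier of several iron-sulfur clusters, had signals of 920.0, 989.9, 963, 959 and 947 in aTX kidneys, against 1330.1, 1405, 1312, 1371 and 1392 in sTX kidneys and 1398, 1487, 1516, 1446 and 1466 in ctr kidneys. The aTX arrays lay below both other groups, with a log2 change of -0.61 ± 0.053 (SE; adjusted p = 7.74e-09) against ctr. Ndufv1, which binds NADH and the flavin, had 1003, 986, 974, 997 and 1049.7 in aTX kidneys, 1308, 1082, 1081, 1174.5 and 1345 in sTX kidneys and 1278, 1314, 1410.4, 1339 and 1357 in ctr kidneys. Its fall in aTX was smaller, -0.42 ± 0.068 (adjusted p = 3.21e-05), and the sTX arrays overlapped the controls. Ndufv2, its partner in the N module, had 1332.5, 1209.9, 1107.5, 1213 and 1287 in aTX kidneys, 1689, 1729.7, 1786, 1707 and 1916 in sTX kidneys and 1693, 1765, 1963.5, 1786 and 1771 in ctr kidneys, a change of -0.55 ± 0.066 in aTX against ctr (adjusted p = 8.27e-07), with the sTX and ctr arrays intermingled.

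In the Q module the core subunits differed in the size of their fall. Ndufs3 had signals of 845, 999.8, 946.5, 1011 and 858 in aTX kidneys, 1373, 1334, 1254, 1433 and 1444 in sTX kidneys and 1504, 1486, 1524, 1371 and 1625 in ctr kidneys. At -0.69 ± 0.07 (adjusted p = 6.7e-08) against ctr it was the core subunit gene with the deepest fall in aTX. Ndufs7, which carries the last iron-sulfur cluster before ubiquinone, had 1093, 1264, 1217.5, 1280.4 and 1078 in aTX kidneys, 1548, 1626, 1435, 1647 and 1690.3 in sTX kidneys and 1757, 1749.6, 1835, 1946 and 1937 in ctr kidneys. Here the groups were fully ordered, aTX below sTX and sTX below ctr on every array, with changes of -0.64 ± 0.07 (adjusted p = 1.97e-07) for aTX and -0.22 ± 0.07 (adjusted p = 0.037) for sTX against ctr. Ndufs8, another iron-sulfur subunit, had 958, 1023, 1002, 978.5 and 881 in aTX kidneys, 1267, 1405, 1018, 1276 and 1296.5 in sTX kidneys and 1193, 1241, 1046, 1169 and 1263 in ctr kidneys. All aTX arrays lay below the controls, but only just, at -0.29 ± 0.08 (adjusted p = 0.00613), and aTX 2 lay above the lowest sTX array.

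The largest falls among the subunit genes in aTX against ctr were found in accessory subunits, which hold no redox centre. Ndufv3, at the tip of the matrix arm, had 629, 719, 667, 721 and 677 in aTX kidneys, against 1138.5, 1279.6, 1179, 1437 and 1243 in sTX kidneys and 1419.9, 1413, 1299, 1349.9 and 1412 in ctr kidneys. The aTX signals were 2.02-fold lower than ctr (-1.01 ± 0.068, adjusted p = 1.52e-10) and 1.84-fold lower than sTX (adjusted p = 3.02e-09), with no overlap, while sTX and ctr overlapped. A second, dimmer Ndufv3 probe set had a smaller fall in aTX, -0.36 against ctr (adjusted p = 0.0125), and was not called in aTX against sTX (-0.18, adjusted p = 0.239).

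Ndufa6, a protein of the LYR family that binds the mitochondrial acyl carrier protein, had 845, 709, 757, 896 and 929.5 in aTX kidneys, 1287, 1317, 1308, 1318 and 1539.5 in sTX kidneys and 1586, 1606, 1645, 1475.5 and 1735 in ctr kidneys. It was 1.95-fold lower in aTX than in ctr (adjusted p = 3.14e-09) and lower in sTX too, at -0.25 ± 0.079 (adjusted p = 0.0324), where sTX 5 alone reached into the control range. Ndufb8, of the distal membrane arm, had 189, 195, 171, 203 and 158 in aTX kidneys, 282, 256, 235, 282 and 275 in sTX kidneys and 300.3, 382, 314, 289.6 and 314 in ctr kidneys, which set the groups apart on every array. Its changes were -0.80 ± 0.086 (adjusted p = 1.54e-07) for aTX and -0.26 ± 0.086 (adjusted p = 0.041) for sTX against ctr.

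**Figure D2:**
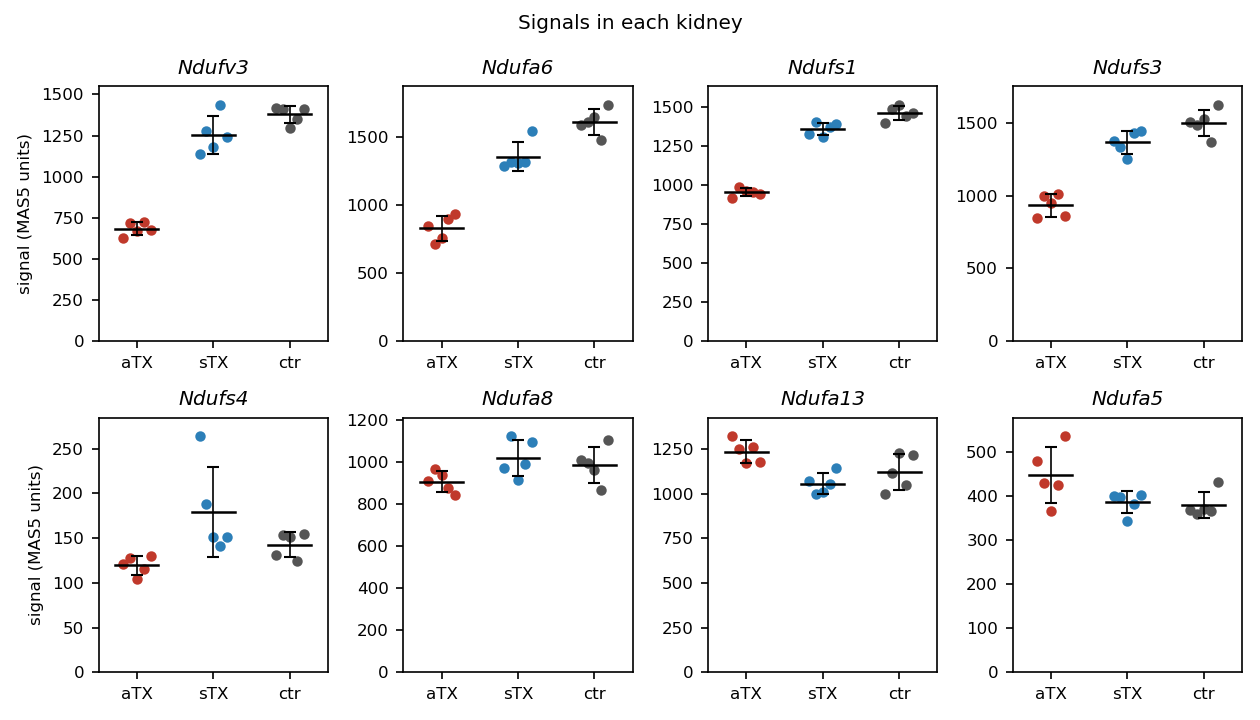
MAS5 signal of 8 subunit genes in each kidney (points), with group means (bars) and SD (error bars), for aTX, sTX and ctr, each on an axis from 0. Ndufv3, Ndufa6, Ndufs1 and Ndufs3 show aTX below both other groups, and Ndufa13 and Ndufa5 have their highest means in aTX.

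4 subunit genes were not called lower in aTX against ctr. Ndufa5, an accessory subunit of the Q module, had 481, 430.4, 366, 426.5 and 536 in aTX kidneys, 402, 399, 343, 383 and 404 in sTX kidneys and 368, 359, 371, 367 and 432 in ctr kidneys. It was called higher in aTX than in ctr at 0.23 ± 0.087 (adjusted p = 0.0377), with aTX 3 among the controls and ctr 5 above 3 aTX arrays. This call was lost without aTX 1 (0.20), aTX 5 (0.16), ctr 1 (0.22), ctr 2 (0.21), ctr 3 (0.22) or ctr 4 (0.22), and within the shared wash run (0.10).

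Ndufa13, also known as GRIM-19 from a screen for cell death under interferon and retinoic acid, had 1321.5, 1250.2, 1171, 1259 and 1179 in aTX kidneys, 1074, 996, 1008, 1057 and 1143 in sTX kidneys and 1000.4, 1119, 1226.5, 1047 and 1219.7 in ctr kidneys. Every aTX array lay above every sTX array (0.23 ± 0.069, adjusted p = 0.0129), but aTX and ctr overlapped (0.14, 95% CI -0.00 to 0.29, adjusted p = 0.11). Against the syngeneic arrays of its own wash run the call was lost (0.24). RefSeq names 4 pseudogenes each of Ndufa5 and Ndufa13. It also names 4 of Ndufa2 and 7 of Ndufb4, which were lower in aTX than in ctr (-0.63 and -0.54). Signals of near-identical copies may be mixed into all of these, which was not tested. 15 of the 34 subunit genes have a named pseudogene.

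Ndufa8, of the ND1 module, had 911, 967, 939, 876 and 843 in aTX kidneys, 974, 1124, 917, 994.5 and 1095 in sTX kidneys and 1009, 997, 961, 867 and 1107 in ctr kidneys. The groups overlapped, and its change in aTX against ctr had a 95% CI of -0.27 to 0.03 (adjusted p = 0.213). Ndufs4, at the junction of the N and Q modules and a gene mutated in Leigh syndrome in humans, was the dimmest subunit gene. It had 121, 128, 104.5, 115 and 130.4 in aTX kidneys, 264, 188, 151, 141 and 151 in sTX kidneys and 131, 153.5, 151, 124 and 155 in ctr kidneys, with sTX 1 far above all others. Its change in aTX against ctr was -0.25 ± 0.13 (adjusted p = 0.145), which passed the threshold once sTX 1 was left out. Against sTX it was lower (-0.54 ± 0.13, adjusted p = 0.00276), at -0.40 without sTX 1. Ndufa12, the accessory subunit with the smallest called fall, had 1284, 1304, 1308, 1254 and 1245 in aTX kidneys, 1521, 1635, 1487.5, 1529.5 and 1721 in sTX kidneys and 1379.6, 1463, 1602, 1535.5 and 1502 in ctr kidneys. Its aTX arrays lay just below the controls (-0.22 ± 0.061, adjusted p = 0.00521).

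By module, the falls in aTX against ctr were deepest in the ND4 module, where 6 of 6 genes were lower with a median of -0.56, from -0.38 for Ndufb11 to -0.62 for Ndufb6. In the N module 9 of 10 were lower (median -0.54), in the ND2 module 3 of 3 (-0.52) and in the ND5 module 6 of 6 (-0.47). The Q module had 4 of 5 lower (-0.35) and the ND1 module 2 of 4 (-0.23), Ndufa1 and Ndufa3. Over all genes 27.7% were called lower, and 44.3% of those with a mean signal of at least 200. The share in the ND1 module thus lay near that of the brighter genes. Of the genes not yet described, Ndufa2 (-0.63) in the N module, Ndufa11 (-0.59) in the ND2 module and Ndufb10 (-0.59) and Ndufb5 (-0.59) in the ND4 module fell the most. Ndufab1, the mitochondrial acyl carrier protein that binds Ndufa6, also fell (-0.52, adjusted p = 5.08e-06). Differences between modules were not tested, since a module holds 3 to 10 genes of the same complex.

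**Figure D3:**
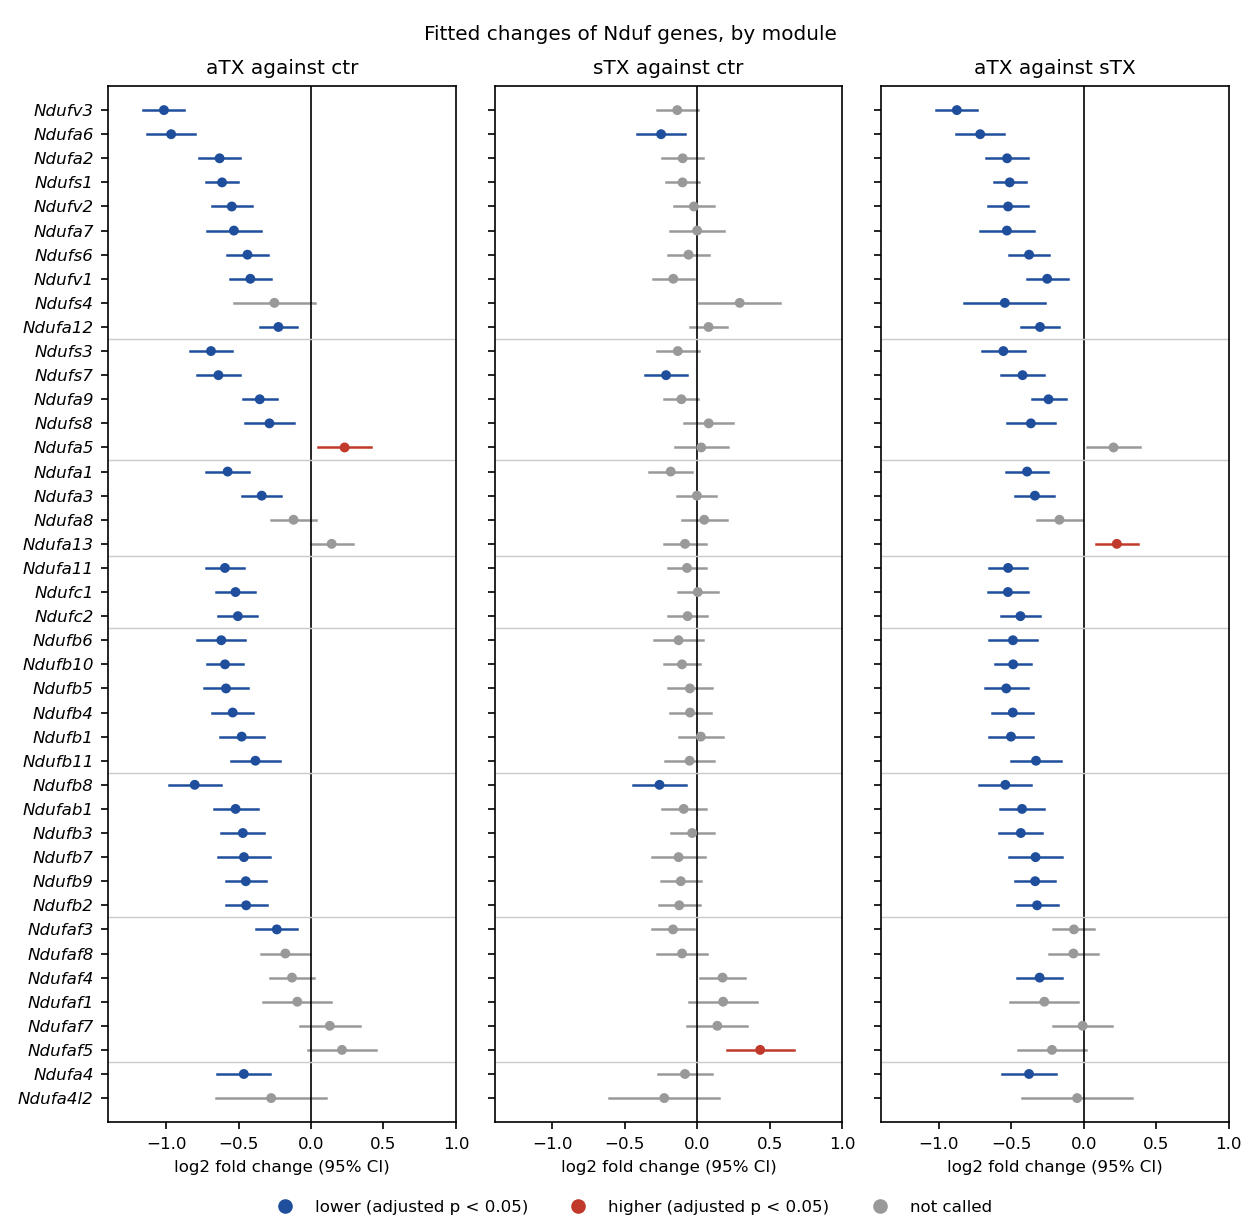
Fitted log2 fold change of each Nduf gene (point) with its 95% confidence interval (line) in the 3 comparisons, grouped by module, with the assembly factors and Ndufa4 and Ndufa4l2 at the bottom. In aTX against ctr and aTX against sTX most subunit genes lie between -0.3 and -0.7, and in sTX against ctr most intervals include 0.

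Of the 6 Ndufaf assembly factors 1 was lower in aTX than in ctr and 0 were higher by limma (2 and 0 at an unadjusted p below 0.05, 1 and 0 by the methods' t-test after adjustment), with a median of -0.11, against the 27.7% of all genes called in each direction. Ndufaf3, an early factor that works with Ndufaf4, had 293.5, 242, 246, 260.4 and 274 in aTX kidneys, 284.5, 259.8, 269, 271 and 293 in sTX kidneys and 287.5, 314, 337, 296 and 314 in ctr kidneys. It was called lower in aTX than in ctr (-0.24 ± 0.068, adjusted p = 0.00749), with aTX 1 inside the control range. Ndufaf4 had 277, 262, 291, 271 and 261.5 in aTX kidneys, 299, 324.5, 371, 334 and 359 in sTX kidneys and 282, 329, 310.2, 311 and 264 in ctr kidneys. It was lower in aTX than in sTX without overlap (-0.30 ± 0.073, adjusted p = 0.00225), a call that was lost after median centring (-0.19), and its change against ctr did not pass the test (-0.13, adjusted p = 0.168).

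Ndufaf5, which modifies an arginine of Ndufs7, had 80.3, 82.2, 89.2, 72.9 and 72 in aTX kidneys, 92.3, 97.8, 77.7, 82.5 and 114 in sTX kidneys and 78.7, 72, 67.1, 60.2 and 64.4 in ctr kidneys. It was higher in sTX than in ctr (0.43 ± 0.11, adjusted p = 0.00921), with 1 sTX array below the highest control. This call was lost with the wash run as a block (0.53), after median centring (0.24), after quantile scaling (0.33) and at the threshold of the methods' t-test. Ndufaf8, the partner of Ndufaf5, had 180.2, 155, 153, 199 and 180.0 in aTX kidneys, 196, 184, 164, 171.5 and 193 in sTX kidneys and 202, 193, 194, 180.4 and 207 in ctr kidneys. Its change in aTX against ctr (-0.18, adjusted p = 0.0896) passed the threshold without aTX 4 (-0.23).

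Ndufaf1, which works in the assembly of the ND2 module, had 52.3, 55.4, 62.7, 54.9 and 61.5 in aTX kidneys, 79.7, 75.8, 76.4, 55.1 and 61.9 in sTX kidneys and 64, 59, 57, 64.8 and 61 in ctr kidneys. Its change in aTX against sTX (-0.27, adjusted p = 0.0663) passed the threshold without sTX 4 (-0.35) or sTX 5 (-0.31). Ndufaf7, a methyltransferase of the mitochondria, had 76.9, 98.1, 96, 103 and 90.8 in aTX kidneys, 88.9, 88.2, 87.6, 96.3 and 105 in sTX kidneys and 94.8, 93.8, 75.5, 78.1 and 82.1 in ctr kidneys, with overlap between all groups and no call.

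Ndufa4 had 2209, 2516, 2360.0, 2475 and 2280.5 in aTX kidneys, 3083, 3094, 2563, 3129.8 and 3585 in sTX kidneys and 3160.4, 3019, 2979, 3661 and 3550.1 in ctr kidneys, and it fell in aTX (-0.46 ± 0.088 against ctr, adjusted p = 0.000183) like the subunits of complex I. Ndufa4l2, known as a target of the hypoxia-inducible factor, had 30, 39.3, 41.2, 31.7 and 51.3 in aTX kidneys, 40.9, 44.4, 44.1, 38.3 and 30.2 in sTX kidneys and 51.9, 41.1, 34.2, 63.8 and 44 in ctr kidneys. At this low signal the groups overlapped and no difference was detectable (aTX against ctr, 95% CI -0.65 to 0.10).

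The second comparison asked what transplantation without rejection does. 3 of the 34 subunit genes were lower in sTX than in ctr (Ndufa6, Ndufb8 and Ndufs7), 0 were higher by limma (5 and 1 at an unadjusted p below 0.05, 4 and 0 by the methods' t-test after adjustment), and the median log2 change was -0.08, against 0.08 for all genes and -0.01 for the brighter genes. Over all genes 8.86% were called lower and 16.1% higher, and 19.3% of the brighter genes were called lower, so the share of subunit genes lay near or under the background. 2 subunit genes, Ndufb8 and Ndufs7, had every sTX array below every control array, against 6.8% of all genes. 1 of 6 assembly factors was higher (Ndufaf5, a call that was lost with the wash run block and under both other scalings) and 0 were lower (2 and 1 at an unadjusted p below 0.05, 1 and 0 by the methods' t-test after adjustment), with a median of 0.16 that turned to -0.039 when arrays were centred on their median.

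This small change hinged on the scaling of the arrays. The median signal of an array was 27.0 ± 0.45 in aTX, 29.3 ± 0.58 in sTX and 25.7 ± 0.99 in ctr. When every array was centred on its median instead, the median of all genes in sTX against ctr moved to -0.11. Then 25 subunit genes were called lower and their median was -0.27. Of the 31042 probe sets tested, this centring called 4724 lower, against 1961 in the scaling used. After quantile scaling 1 subunit gene was called lower (Ndufa1), Ndufa12 was called higher and the subunit median was -0.011. Of all probe sets tested, 2388 were called lower and 2807 higher there. Ndufa6, Ndufb8 and Ndufs7 lost their call under that scaling. Single arrays mattered as well: 0 subunit genes were lower without ctr 5, sTX 2 or sTX 3, 1 without ctr 2, ctr 3 or sTX 1, 2 without ctr 1, ctr 4 or sTX 4, and 4 without sTX 5. The median over the subunit genes on arrays sTX 1 to 5 was -0.12, -0.10, -0.16, -0.04 and 0.03 relative to the control mean, and 24 of the 34 lay below every control on sTX 3 against 5 on sTX 5. Counts of this kind over all genes were not made. With the wash run as a block 0 of the 3 genes kept the call, and the effect of the run cannot be told apart from that of the graft within these 10 arrays.

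**Figure D4:**
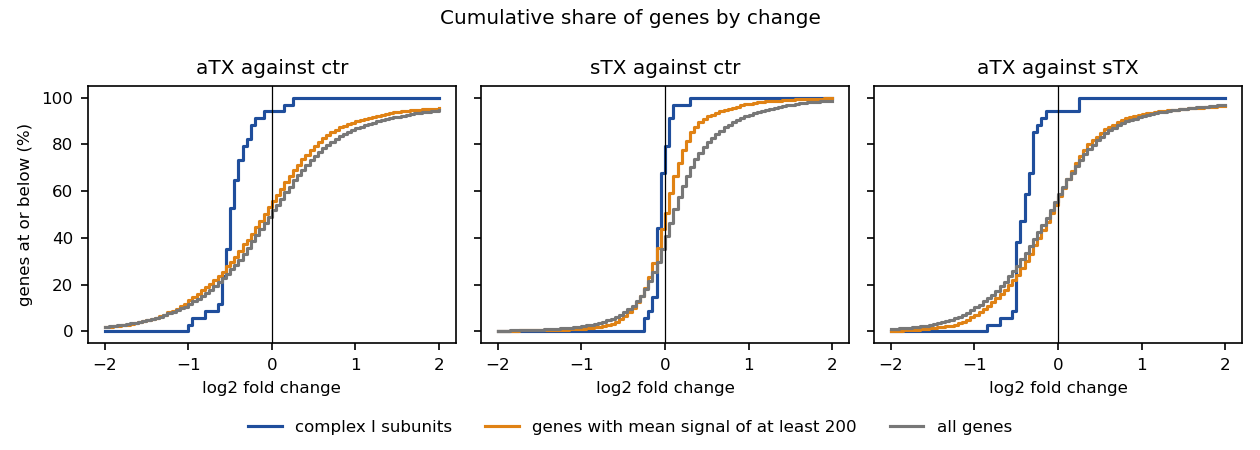
Share of genes (percent) at or below each log2 fold change, for the 34 complex I subunit genes, the 3784 genes with a mean signal of at least 200 and all 14217 genes, in the 3 comparisons. The subunit curve is steep, around -0.51 in aTX against ctr, -0.08 in sTX against ctr and -0.44 in aTX against sTX. The other curves rise around 0, slowly in both comparisons of aTX and more steeply in sTX against ctr.

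The third comparison set rejected grafts against grafts that went through the same surgery. 31 of the 34 subunit genes were lower in aTX than in sTX, 1 was higher (Ndufa13) and 2 were not called (Ndufa5 and Ndufa8), with a median log2 change of -0.44 (1.35-fold lower). Over all genes 28.4% were called lower and 19.8% higher, 42.8% of the brighter genes were called lower, and the medians were -0.13 for all genes and -0.11 for the brighter genes. 30 subunit genes had every aTX array below every sTX array, against 22.6% of all genes. Within the wash run that holds both groups, aTX 1 and 5 against the 5 sTX arrays, 28 subunit genes were lower (median -0.46). Ndufb7, Ndufs4 and Ndufv1 lost their call. In that fit 5120 of the 31042 probe sets tested were lower, and the median of all genes was -0.10. With all arrays the deepest falls were again those of Ndufv3 (-0.88) and Ndufa6 (-0.71), followed by Ndufs3 (-0.55). Ndufa5 was 0.21 (95% CI 0.02 to 0.39, adjusted p = 0.0747) and was called higher without aTX 3 (0.27). It was also called higher in 5 of the 15 other settings, among them the fit within the shared wash run and median centring. Ndufa8 was -0.17 (adjusted p = 0.0852) and was called lower without sTX 3 (-0.21). Both comparisons of aTX use the same 5 allogeneic arrays. 1 of 6 assembly factors was lower in aTX than in sTX (Ndufaf4), with a median of -0.15.

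The subunits of the other respiratory complexes also fell in aTX against ctr, with medians nearer to 0 than the -0.51 of complex I, a difference that was not tested. 4 of 4 complex II genes were lower (median -0.39), 8 of 8 of complex III (-0.35), 6 of 9 of complex IV (-0.29) and 9 of 13 of ATP synthase (-0.34), and 0 were higher (0 also at an unadjusted p below 0.05 and by the methods' t-test after adjustment). Of all genes 27.7% were called lower and 27.7% higher, and 44.3% of those with a mean signal of at least 200 were called lower. Sdhd of complex II (-0.50), Uqcr11 of complex III (-0.64), Cox8a of complex IV (-0.40) and Atp5me of ATP synthase (-0.88) fell the most within their lists. Per array, the median of the complex I subunits lay between -0.54 and -0.47 in aTX, that of complex III between -0.47 and -0.29 and that of ATP synthase between -0.48 and -0.17. The proximal tubule markers had medians of -1.36 to -1.01 on the same arrays. In sTX against ctr limma called 0 of the 34 genes of these 4 complexes in either direction, 0 had an unadjusted p below 0.05 and 0 were called by the methods' t-test after adjustment. The shares of all genes called there were 8.86% lower and 16.1% higher. Of 12 complex I assembly factors with other names 8 were lower in aTX and 0 higher (9 and 1 at an unadjusted p below 0.05, 7 and 1 by the methods' t-test after adjustment; median -0.34), among them Ecsit (-0.59, adjusted p = 1.21e-05) and Tmem126b (-0.45, adjusted p = 5.26e-05).

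**Figure D5:**
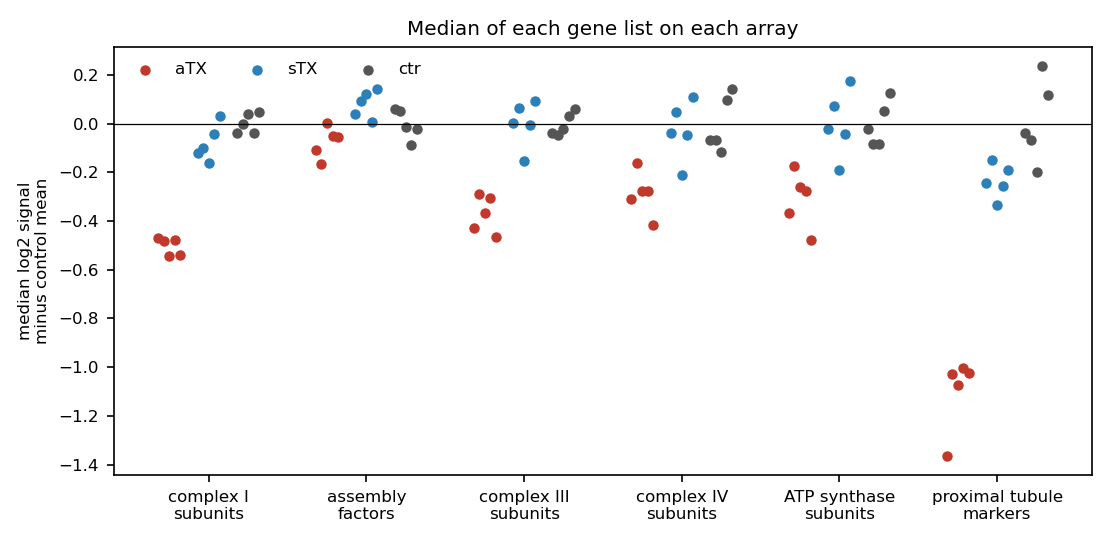
Median over each gene list of the log2 signal minus the control mean, on each array (points), for aTX, sTX and ctr. The aTX arrays lie between -0.54 and -0.47 for the complex I subunits and between -1.36 and -1.01 for the proximal tubule markers, and aTX and ctr overlap for the assembly factors.

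Of 11 regulators of mitochondrial gene expression 3 were lower and 3 higher in aTX than in ctr, shares near the 27.7% of all genes called in each direction. Ppargc1a, the coactivator that drives the formation of mitochondria, averaged 203 ± 15.8 in aTX, 342 ± 55.5 in sTX and 392.02 ± 51.4 in ctr (SD, n = 5 each), a 1.92-fold fall in aTX against ctr (adjusted p = 1.48e-07). Tfb2m and Polrmt, which transcribe the mitochondrial DNA, were lower as well (-0.84 and -0.76). Nrf1, which codes for NRF-1, averaged 53.2 ± 3.06 in aTX, 35.8 ± 4.14 in sTX and 37.6 ± 6.29 in ctr and was higher in aTX (0.52, adjusted p = 0.00448). Gabpa, which codes for the DNA-binding part of GABP, averaged 120.2 ± 2.08 in aTX, 125 ± 20.2 in sTX and 86.7 ± 11.1 in ctr and was higher in both kinds of graft (0.48 in aTX and 0.52 in sTX). Tfam, the packaging factor of mitochondrial DNA, averaged 219 ± 10.6 in aTX and 221 ± 18.1 in ctr and was not called.

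Of 10 hypoxia responsive genes 5 were higher and 3 lower in aTX than in ctr, against 27.7% of all genes in each direction, so that the share of lower genes lay near the background. Hif1a was 2.75-fold, Pdk1, which holds pyruvate back from the mitochondria, 2.82-fold and Ldha, which makes lactate, 2.33-fold higher, whereas Vegfa was 2.62-fold and Egln3 2.41-fold lower (adjusted p at most 2.3e-06).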

How the data were processed

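RNA of 15 rat kidneys was hybridized to Affymetrix rat genome arrays. The deposited values are intensities (linear MAS5 signals) that the authors had scaled array by array, to a mean of 100.0 once the top and bottom 2% of probe sets are trimmed, and instrument records, whose fluidics entries, a non-expression (other) unit, gave the wash runs. Genes of probe sets came from the platform annotation. 57 control probe sets were set aside, and signals of 0 were set to 0.05. Log2 signals of the 31042 remaining probe sets were fitted with limma 3.58.1 under R 4.3.3 (linear model, contrasts and moderated variances with an intensity trend), all 15 arrays in 1 fit, Benjamini-Hochberg adjustment over all probe sets. The fit was tested on simulated data. Nothing says that the same replicate number marks the same animal, and p-values measure the spread between kidneys. Grafts and controls from the same donor, which the labels do not identify, were fitted as independent kidneys. The number of arrays limits the precision.

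Levels are given per array for the core subunits, the 3 subunit genes with the largest fall and rise in each comparison with ctr, subunit genes not called or called higher in aTX against ctr, the assembly factors, Ndufa4 and Ndufa4l2. Members, modules and lists were chosen with earlier results of these data known. The YY1 motif was added after the NRF-1 and ETS motifs. Alternatives covered scaling, floor, filter, choice of probe set, test, wash run and single arrays. Figures and tables used Python 3.11.15, pandas 2.3.3, numpy 2.4.6, scipy 1.17.1 and matplotlib 3.10.9.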

Additional observations from a re-analysis of the deposited data

Results flagged for a closer look

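In 5 of 126 combinations of a Nduf gene and a group, 1 array stood apart from the other 4 of its group by a Dixon test at the 95% level, a rule by which chance flags about 1 in 20 groups. Ndufb2 was lowest in aTX 5, at 1000.8 against a median of 1182.85 in the other 4 aTX kidneys. Ndufa6 was highest in sTX 5, at 1539.5 (median of the other 4, 1312.5), Ndufa7 was highest in sTX 2, at 1430.6 (993.1), and Ndufb4 was lowest in sTX 3, at 2267.4 (2536.75). Ndufa5 was highest in ctr 5, at 431.6 (367.3).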

How the results depend on the processing

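The falls in aTX were stable in number. Over the 15 other settings 28 to 31 subunit genes were lower in aTX than in ctr, and 25 to 32 in aTX than in sTX; when single arrays were left out these were 30 to 31 and 31 to 32. Median centring put the median of all genes at -0.11 in aTX against ctr, -0.11 in sTX against ctr and -0.0092 in aTX against sTX (in the scaling used, -0.033, 0.080 and -0.13), and the subunit median at -0.59, -0.27 and -0.32; quantile scaling gave -0.44 in aTX against ctr and -0.011 in sTX against ctr. Subunit genes lower in sTX than in ctr numbered 25 after median centring, 1 after quantile scaling and 0 at an adjusted p below 0.01, without the intensity trend, with the wash run block or by the methods' t-test (unadjusted p below 0.001), and 0 to 4 when single arrays were left out. Assembly factors lower in aTX than in ctr numbered 2 after median centring or quantile scaling and 0 by the methods' t-test, and 1 to 2 when single arrays were left out. In sTX against ctr, 2 were lower after median centring, where their median turned to -0.039, against 0.16. In aTX against sTX there were 2 after averaging the probe sets of a gene, after dropping probe sets with mean signals under 50 or with sTX 4 and 5 left out, 0 after median centring or by the methods' t-test, and 1 to 2 when single arrays were left out. The call of Ndufa5 in aTX against ctr was lost in 15 of 30 alternatives. A replicate block left 30, 3 and 31 subunit genes lower in aTX against ctr, sTX against ctr and aTX against sTX. Of the 15 same-number pairs 2 had correlated deviations over 0.1 (range -0.0945 to 0.164). This check cannot exclude pairing, because which graft and which control came from the same donor is not given. The numbers were not taken to pair kidneys. Of the 31042 probe sets tested, 1961 were lower in sTX than in ctr in the scaling used. Median centring gave 4724, quantile scaling 2388 and the wash run block 255. The causes of the shifts between settings were not tested. At the low signal of Ndufa4l2 the confidence intervals were wide.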

Other observations

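Probe sets with several gene symbols were kept out of the counts. That of Ndufs5 and its pseudogene Ndufs5-ps2 averaged 1126 ± 54.7 in aTX, 1640.3 ± 120 in sTX and 1625 ± 86.1 in ctr (SD, n = 5 each), a log2 change of -0.53 in aTX against ctr (limma, adjusted p = 1.23e-06) and 0.01 in sTX against ctr (adjusted p = 0.934). That of Ndufa10 and Ndufa10l1, of the ND2 module like Ndufs5, averaged 411 ± 30.7 in aTX, 494 ± 42.9 in sTX and 566 ± 42.8 in ctr, with changes of -0.46 (adjusted p = 3.44e-05) in aTX and -0.20 (adjusted p = 0.0801) in sTX against ctr.

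Of the genes with a second probe set, Ndufa7 was lower in aTX against ctr by both (-0.53 and -0.77), as was Ndufv3 (-1.01 and -0.36). The second Ndufa9 probe set, with a mean signal of 15.3, was not called (-0.06, adjusted p = 0.892).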
